A study of Mus musculus with 2 samples.

Results

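The miR-200 family comprises 5 microRNA (miRNA) genes in the mouse, Mir200b, Mir200a and Mir429 on chromosome 4 and Mir200c and Mir141 on chromosome 6, and all 5 were among the 1973 miRNA gene rows measured in the newborn heart. The genes were picked by name, and the family was selected on values already known from these counts, which were higher in one pup than in the other; that difference is therefore described here and not tested. The only group consisted of 2 hearts, 1 from each of 2 mouse pups of strain B6NCrl taken on postnatal day 0, and no treatment or genetic change is named in the labels. Pup 2 gave replicate 1 and pup 3 gave replicate 2, both pups came from pregnant female 1, and the labels carry the same donor identifier for both. Each sample was labelled as heart tissue, so all cell types in it contributed RNA. MicroRNA sequencing of inserts under 30 nt gave 2323450 sense-strand counts on miRNA genes in replicate 1 and 3487183 in replicate 2.

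miRNAs are short RNAs that pair through a seed, bases 2 to 8 from the 5′ end, with messenger RNAs and repress them. The miR-200 family is known as a hallmark of epithelial cells, where its members repress Zeb1 and Zeb2, transcription factors that silence the adhesion gene E-cadherin and promote the change from an epithelial to a mesenchymal state. The Zeb factors in turn repress transcription of both miR-200 clusters, so that each side holds the other down. Heart muscle cells, endothelial cells and fibroblasts are not epithelial, and messenger RNAs were not measured here.

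By sequence, the family divides in a different way from its genomic loci. The arm taken from the 3′ side of each hairpin (3p), which is the main product of these genes, is printed here from RefSeq on GRCm38.p6, with the seed in capitals. All 5 genes matched the RefSeq table, and each gene is transcribed from the minus strand.
miR-200b-3p, chr4:156055685-156055706: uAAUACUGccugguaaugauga
miR-429-3p, chr4:156053916-156053937: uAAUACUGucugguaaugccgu
miR-200c-3p, chr6:124718324-124718346: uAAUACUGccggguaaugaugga
miR-200a-3p, chr4:156054911-156054932: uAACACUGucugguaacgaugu
miR-141-3p, chr6:124717917-124717938: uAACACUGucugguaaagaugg

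The first 3 sequences share the seed AAUACUG and the last 2 share AACACUG. Counting positions from 1 at the 5′ end, the step from miR-200b-3p to miR-200a-3p changes the seed at 1 base, U4C. Each seed group thus has members on both chromosomes. Among 1738 mature mouse miRNAs in the RefSeq table, neither seed occurred in any gene outside the family. Except for miR-429-3p, the nearest relatives also lie on different chromosomes. Over 22 positions miR-200c-3p differs from miR-200b-3p at U11G and A22G, and miR-141-3p differs from miR-200a-3p at C17A and U22G. By contrast, neighbours on chromosome 4 differ at 4 positions, U4C, C9U, U17C and A22U from miR-200b-3p to miR-200a-3p and C9U, A19C, U20C and A22U from miR-200b-3p to miR-429-3p. For miR-429-3p these neighbours are the nearest, since it differs from miR-200c-3p and miR-141-3p at 5 positions each.

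These resemblances bear on how well reads can be placed. The longest identical stretch between a member's hairpin and any of 1004 other miRNA hairpins was 17 nt, between Mir200a and Mir141. It was 14 nt between Mir200b and Mir200c, and 12 nt between Mir429 and Mir141 or Mir200a. Each of these is shorter than a full-length mature miRNA of this family, which has 22 or 23 nt on the 3p arm. Reads aligned to several places were 36.6% of reads in replicate 1 and 37.1% in replicate 2, and the tables do not assign them to genes. How many came from members was not measured. The tables give 1 value per hairpin and do not tell its 2 arms apart.

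In the genome (GRCm38, GENCODE M21), the chromosome 4 hairpins run 5′ to 3′ as Mir200b (156055681 to 156055750, 70 nt), Mir200a (156054896 to 156054985, 90 nt) and Mir429 (156053905 to 156053987, 83 nt). Together they span 1846 nt. All 3 lie in introns of Ttll10, a protein-coding gene, and within the noncoding transcript Gm13648. Mir429 overlaps an exon of Gm13648, while Mir200b and Mir200a lie in its introns. The chromosome 6 hairpins are closer together, Mir200c (124718322 to 124718390, 69 nt) and Mir141 (124717914 to 124717985, 72 nt), with 336 nt between them. Both lie in introns of the noncoding gene Gm15884, and Mir141 also overlaps an exon of Gm29008, an unconfirmed transcript model. All of these overlapping genes are on the minus strand, as the miRNAs are.

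All 5 members were counted in both hearts at low levels. Values are given as CPM, the sense count scaled to a total of 1000000 sense counts on miRNA genes, with exact Clopper-Pearson 95% intervals per library that cover counting error only. The 5 genes together had 469 counts in replicate 1, which is 0.0202% of sense counts, and 1899 in replicate 2, or 0.0545%. In CPM the family stood at 202 (184 to 221) and 545 (520 to 570), a mean of 373 ± 242 (SD, n = 2). In whole tissue, fewer cells of a type and less RNA per cell cannot be told apart. Each member was above the level that a count of 0 would have allowed, 1.29 CPM for replicate 1 and 0.860 CPM for replicate 2.

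Mir429, of the AAUACUG seed group, was the most abundant member, with 236 counts in replicate 1 and 864 in replicate 2. These equal 102 CPM (89.0 to 115) and 248 CPM (232 to 265), a mean of 175 ± 103 CPM (SD, n = 2). It ranked 156 of 1973 genes in replicate 1 and 121 in replicate 2. Mir429 is the last hairpin of the chromosome 4 cluster, and in both pups it held the largest share of the family, 50.3% and 45.5%.

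Mir200b, the first hairpin of that cluster and a member of the same seed group, had 108 and 327 counts. These equal 46.5 CPM (38.1 to 56.1) and 93.8 CPM (83.9 to 104), a mean of 70.1 ± 33.4 CPM. Its highest value was below the lowest value of Mir429. Mir200a, the middle hairpin, which carries the other seed, had 27 and 65 counts, or 11.6 CPM (7.66 to 16.9) and 18.6 CPM (14.4 to 23.8). Its mean of 15.1 ± 4.96 CPM was the lowest of the family, and its intervals in the 2 pups overlapped.

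Mir200c, the first hairpin on chromosome 6 and the closest in sequence to miR-200b, had 83 and 543 counts. These equal 35.7 CPM (28.4 to 44.3) and 156 CPM (143 to 169), a mean of 95.7 ± 84.8 CPM. It moved from rank 203 in replicate 1 to rank 139 in replicate 2. Mir141, its neighbour and the closest in sequence to miR-200a, had 15 and 100 counts, or 6.46 CPM (3.61 to 10.7) and 28.7 CPM (23.3 to 34.9). Its mean was 17.6 ± 15.7 CPM.

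**Figure D1:**
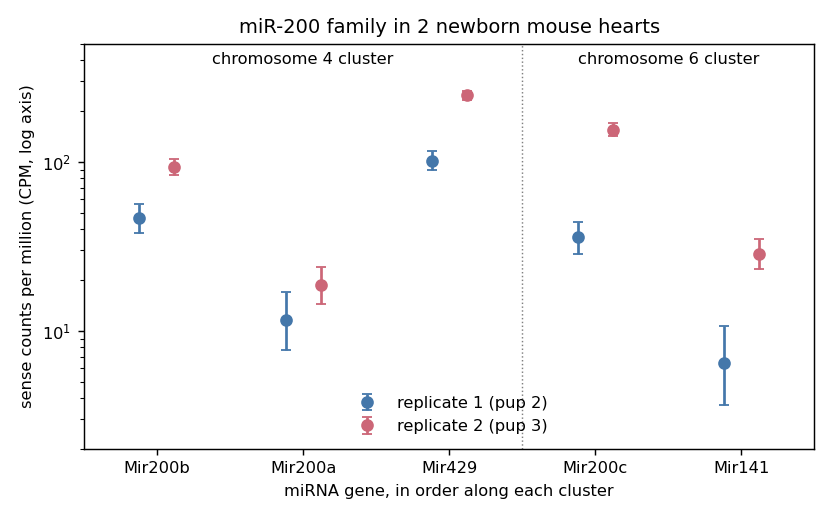
CPM (log axis) of each member in replicate 1 and replicate 2, with exact 95% counting intervals as bars, in order along each cluster. Mir429 is highest in both pups (102 and 248 CPM), and the gap between pups is widest for Mir200c and Mir141.

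The order of the members was Mir429, Mir200c, Mir200b, Mir141 and Mir200a by the mean, but only part of it held beyond the spread between pups. Of the 10 pairs of members, 7 had ranges that did not overlap, namely Mir429, Mir200c and Mir200b each against Mir141 and Mir200a, and Mir429 against Mir200b. The other 3 pairs overlapped: Mir429 with Mir200c, Mir200c with Mir200b, and Mir141 with Mir200a. In 2 of these the order also turned. Mir200b was above Mir200c in replicate 1 and below it in replicate 2, and Mir200a was above Mir141 in replicate 1 and below it in replicate 2. Each of these 2 pairs is made of the closest relatives by sequence, 1 from each chromosome. Levels of different miRNAs compare counts, and how many reads each yields per molecule was not measured.

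Every member was higher in replicate 2, and the chromosome 6 genes by more than the chromosome 4 genes. The CPM of replicate 2 over that of replicate 1 was 4.36 for Mir200c, with an exact 95% counting interval of 3.45 to 5.56, and 4.44 (2.57 to 8.23) for Mir141. On chromosome 4 it was 2.44 (2.11 to 2.83) for Mir429, 2.02 (1.62 to 2.53) for Mir200b and 1.60 (1.01 to 2.61) for Mir200a. The interval of Mir200a begins close to 1, and with TMM scaling it reaches below 1 (0.998 to 2.58). Neighbours on a chromosome thus had ratios whose intervals overlapped, whereas the interval of Mir200c lay above those of all 3 chromosome 4 genes. The interval of Mir141 lay above that of Mir200b and overlapped those of Mir429 and Mir200a. No p-value is given, since there was 1 library per pup and the family was selected on this difference.

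Summed by locus, the chromosome 4 genes went from 160 CPM (144 to 177) to 360 CPM (341 to 381), a ratio of 2.26 (2.01 to 2.54). The chromosome 6 genes went from 42.2 CPM (34.2 to 51.4) to 184 CPM (170 to 199), a ratio of 4.37 (3.53 to 5.46). The chromosome 6 share of the family counts was 20.9% in replicate 1 (interval 17.3 to 24.9) and 33.9% in replicate 2 (31.7 to 36.0), a difference of 13.0 percentage points. These shares do not depend on library size, since both parts come from the same library. The count ratio of chromosome 6 over chromosome 4 was 1.94-fold (1.52 to 2.49) higher in replicate 2.

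Summed by the seed of the 3p arm, the family looked alike in the 2 hearts. The sums are of hairpin counts that do not tell the arms apart, so they do not measure molecules with each seed. The AAUACUG group (Mir200b, Mir429 and Mir200c) went from 184 to 497 CPM, a ratio of 2.71 (2.43 to 3.02). The AACACUG group (Mir200a and Mir141) went from 18.1 to 47.3 CPM, a ratio of 2.62 (1.86 to 3.77). The AAUACUG group held 91.0% (88.1 to 93.5) of the family counts in the first pup and 91.3% (90.0 to 92.5) in the second, a mean of 91.2% ± 0.188 (SD, n = 2). The ratio of the seed groups was 10.2 and 10.5, and its change between pups was 1.03-fold. The interval of that change, 0.707 to 1.49, shows what this depth can resolve.

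**Figure D2:**
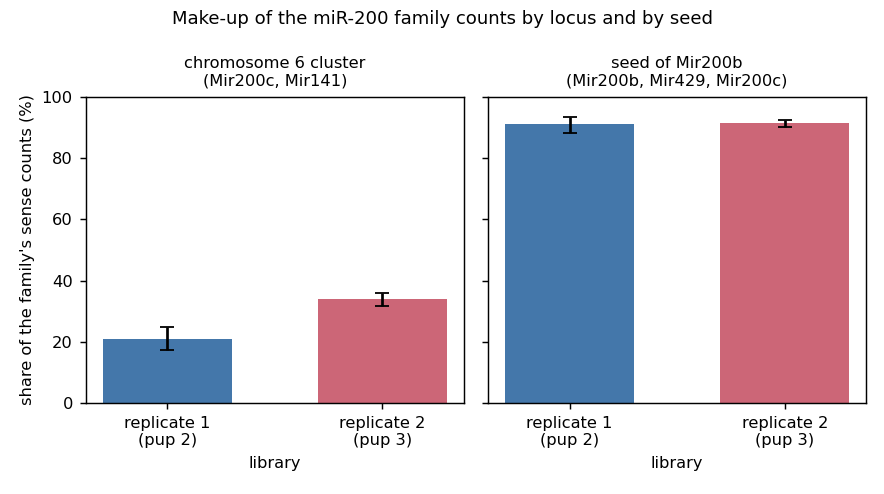
Share of the family's sense counts (%) held by the chromosome 6 genes (left) and by the genes with the seed of Mir200b (right) in each library, with exact 95% intervals as bars. The chromosome 6 share is 20.9% and 33.9%, while the seed share is 91.0% and 91.3%.

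For genes of the same cluster, the change in count ratio between the pups was within counting error. Mir141 stood to Mir200c at 0.181 (0.0968 to 0.316) in replicate 1 and at 0.184 (0.147 to 0.228) in replicate 2, a mean log2 ratio of -2.46 ± 0.0192 (SD, n = 2). Mir429 over Mir200b was 2.19 (1.73 to 2.77) and 2.64 (2.32 to 3.01), a mean log2 ratio of 1.26 ± 0.194. Mir200a over Mir200b was 0.250 (0.158 to 0.384) and 0.199 (0.150 to 0.260), a mean log2 ratio of -2.16 ± 0.234. In that order, these ratios changed between the pups 1.02-fold (0.555 to 1.98), 1.21-fold (0.922 to 1.58) and 0.795-fold (0.47 to 1.37). The first interval includes 1.94, the change of chromosome 6 over chromosome 4. With 15 counts of Mir141 in replicate 1, its small SD therefore does not show a tightly kept proportion. Mir429 over Mir200a, the adjacent pair, was 8.74 (5.86 to 13.5) and 13.3 (10.3 to 17.4), the widest change within a cluster at 1.52-fold (0.911 to 2.48); this pair was added after the other values were seen. In each of these 4 pairs the intervals of the 2 pups overlapped. The member with the AACACUG seed was the lower of its cluster's genes at both loci.

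Relatives on different chromosomes did not keep their proportions. The count of Mir200c over that of Mir200b went from 0.769 (0.570 to 1.03) to 1.66 (1.45 to 1.91), a 2.16-fold change (1.55 to 3.01). Mir141 over Mir200a was 0.556 (0.275 to 1.08) and 1.54 (1.12 to 2.14), a 2.77-fold change (1.30 to 6.03). In both pairs the intervals of the 2 pups did not overlap.

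Against all miRNA genes, the members were among those that differed most between the pups. Log2 ratios here use CPM + 1 and cover the 258 genes whose mean reached 10 CPM. All 5 members passed this filter, but Mir141 was below 10 CPM in replicate 1 and passed through replicate 2. The same holds for 8 of the 12 genes past 2-fold. Of all 258 genes, 11 were below 10 CPM in replicate 1 and 1 was below it in replicate 2. The filter on the mean treats the pups alike, but a low gene can pass it through its higher library alone. The median absolute log2 ratio of the 258 genes was 0.13 and their median log2 ratio was 0.06, whereas the median of the members was 1.28. By 1.5-fold or more, 5 of 5 members were higher in replicate 2, beside 20 of the 258 genes (7.75%), and 0 members were lower, beside 3 genes (1.16%). By 2-fold or more, 3 members (Mir200c, Mir141 and Mir429) were higher, beside 12 genes (4.65%), and none of the 258 genes (0%) was lower. Mir200b stood just outside this line, at 1.996-fold with the pseudocount and 2.02-fold without it. Since the family was selected on this contrast, these counts are a description.

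**Figure D3:**
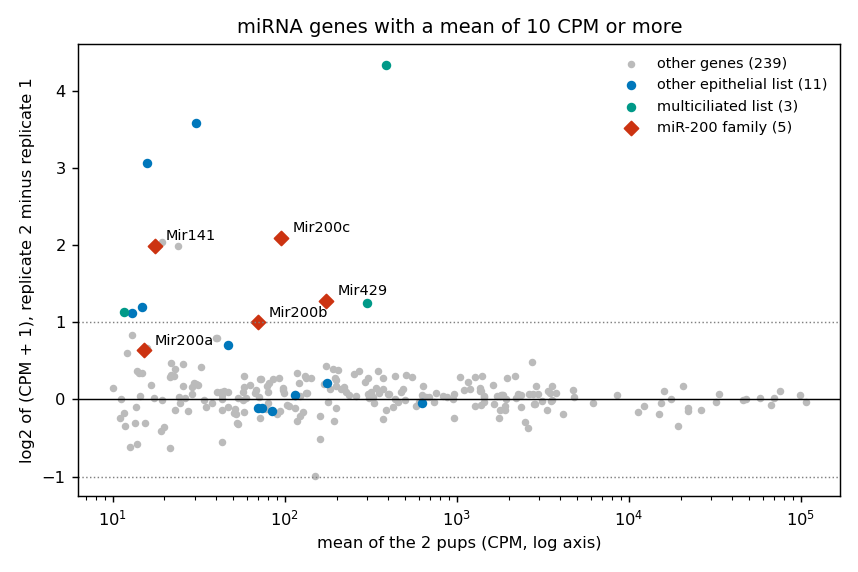
Difference in log2(CPM + 1) between replicate 2 and replicate 1 against the mean CPM (log axis) for the 258 miRNA genes whose mean reached 10 CPM; dotted lines mark 2-fold. The 5 members (diamonds) lie between 0.64 and 2.09, above most of the other genes at their level.

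The abundant markers of heart cells differed between the pups by far less than the family did. Mir208b, which is made from an intron of a cardiac myosin gene, had 69447 CPM in replicate 1 and 70139 in replicate 2, 344 and 129 times the family's count. Mir208a and Mir499, also made from myosin genes, had ratios of 0.876 (0.864 to 0.888), lower in replicate 2 beyond counting error, and 1.02 (0.998 to 1.05). The 4 other measured genes of the list (Mir1a-1, Mir133b, Mir133a-1 and Mir133a-2) never exceeded 25 counts, and their ratios lay below 1 with intervals that include 1. Mir133a-1 and Mir133a-2 are copies with the same mature miRNA, and Mir1a-1 has such a copy too. Reads aligned to several places are not assigned to genes, so these counts are uncertain and do not show low levels. Relative to Mir208b the family was 2.67-fold (2.41 to 2.96) higher in replicate 2. Relative to Mir126a, the endothelial miRNA, it was 2.76-fold higher (2.50 to 3.06), and relative to Mir143, a smooth muscle miRNA, 2.60-fold (2.34 to 2.88). The mesenchymal list (Mir214, Mir21a and the Mir199 genes, 5 of 5 with a row) summed to 21271 and 23860 CPM, and none of its 4 genes at the filter passed 1.5-fold. The Mir199 loci share mature sequences and their counts are uncertain.

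Other epithelial miRNAs fell into those that were higher in replicate 2 with the family and those that were not. Of the 11 in the list, all at or above the filter, 4 were higher by 2-fold or more (beside 4.65% of all 258 genes), 5 by 1.5-fold or more (beside 7.75%) and 0 lower by 1.5-fold (beside 1.16%), and the median log2 ratio was 0.21. All 4 past 2-fold, Mir205, Mir375, Mir183 and Mir96, were below 10 CPM in replicate 1 and reached the filter through replicate 2, so their count supports nothing by itself. Mir205, a miRNA of stratified epithelia, had 6 and 101 counts, or 2.58 and 29.0 CPM. Mir375, a miRNA of endocrine and gut epithelia, had 9 and 200 counts, or 3.87 and 57.3 CPM. Mir183, Mir96 and Mir182, a cluster best known from sensory epithelia, had ratios of CPM + 1 of 2.28, 2.18 and 1.63.

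The remaining 6 epithelial miRNAs stayed under 1.5-fold. Mir203, the skin miRNA, had 163 CPM in replicate 1 and 189 in replicate 2, a level like that of Mir429 with a ratio of 1.16 (1.02 to 1.32). Mir192, Mir194-1, Mir194-2 and Mir215, miRNAs abundant in gut, liver and kidney, had log2 ratios of -0.11, -0.15, -0.11 and -0.04, and Mir31 had 0.05. Mir194-1 and Mir194-2 are copies with the same mature miRNA and are uncertain. The family over Mir203 was 2.33-fold (1.98 to 2.75) higher in replicate 2. The summed level of the 11 was 1208 and 1326 CPM, and Mir215 alone held 637 and 619 of these.

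miRNAs of multiciliated cells were higher in the same pup. Mir449a had 83 and 2589 counts, or 35.7 and 742 CPM. Its count equalled that of Mir200c in replicate 1 and exceeded that of every member in replicate 2. Mir34c had 414 and 1483 counts, a ratio of 2.39 that is near the ratio of Mir429, and Mir34b had 16 and 57. Mir449b and Mir449c had 0 counts in replicate 1 and 4 and 3 in replicate 2, at or near the limit that a count of 0 allows. The 5 genes summed to 221 and 1186 CPM. The labels name no tissue other than heart, and the part that any other tissue or cell type had in the difference between pups was not tested.

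**Figure D4:**
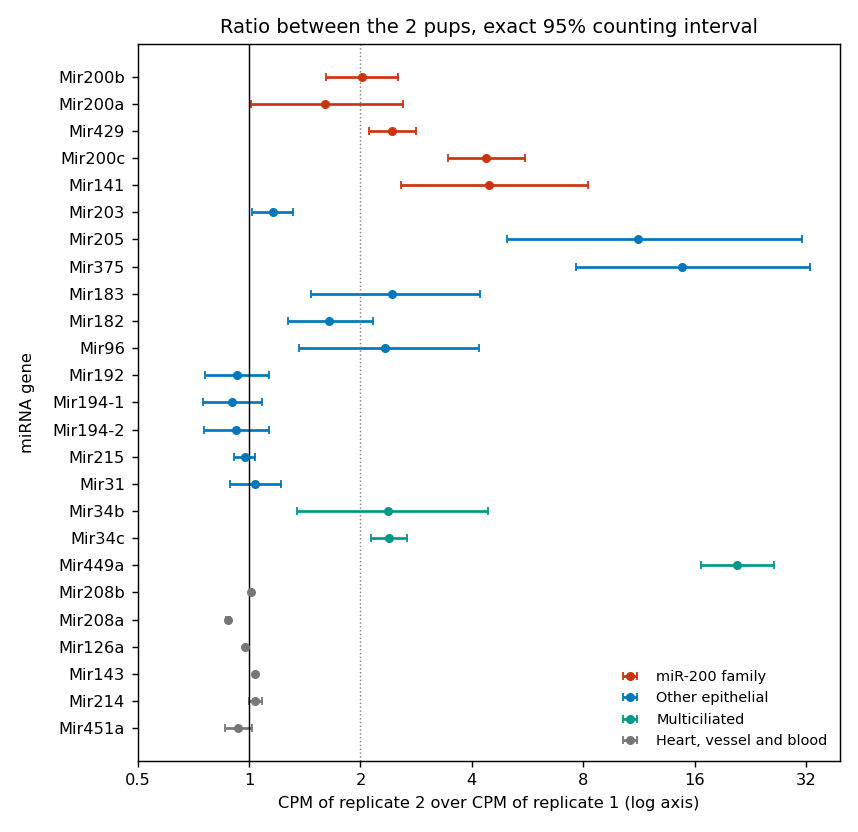
CPM of replicate 2 over CPM of replicate 1 (log axis) with exact 95% counting intervals as bars for the members, other epithelial, multiciliated, and heart, vessel and blood miRNAs; the solid line marks 1 and the dotted line 2. Mir200c and Mir141 sit near 4.4, the chromosome 4 genes between 1.60 and 2.44, and Mir208b, Mir126a and Mir143 near 1.

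Outside the family and the marker lists, the 5 genes whose log2 ratio was nearest to the members' median of 1.28 were Mir770 (0.84), Mir338 (0.79), Mir193b (0.79), Mir452 (0.67) and Mir218-1 (0.60). The likeness rests on 2 libraries and 1 ratio. Each was nearer to Mir200a and Mir200b than to Mir200c and Mir141. Mir338 had 28.8 and 50.8 CPM and Mir193b 29.3 and 51.3 CPM. Mir770 (9.04 and 16.9 CPM) and Mir218-1 (9.47 and 14.9 CPM) were below 10 CPM in replicate 1. Both reached the filter through replicate 2, so their place among these genes supports nothing by itself. Mir218-1 has a second copy with the same mature miRNA and is uncertain. That copy, Mir218-2, was not higher in replicate 2, with 36.15 and 33.84 CPM and a log2 ratio of -0.09.

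Reads on the strand opposite to a gene, which the selection of the family did not use, were nearly absent at its loci. Mir200a had 1 opposite-strand read of 28 in replicate 1 and 3 of 68 in replicate 2, and Mir200b, Mir429, Mir200c and Mir141 had 0 in both. Over all genes, 6.61% and 6.67% of reads on genes were on the opposite strand. That share pools the reads of all genes, and how it was spread over single genes was not examined. The counts of the members were thus nearly the same whether or not the strand was taken into account.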

How the data were processed

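MicroRNA sequencing libraries of 2 newborn hearts, 1 per pup, were compared. The authors deposited raw counts of reads for each miRNA gene, with no scaling, on mm10 with GENCODE M4 per the labels and file descriptions; the aligner, counter and handling of multiple alignments are not given in the sources used here. Of the 3 columns (both strands, sense, opposite), sense counts were used. The 4 summary rows, which hold unmapped, multiply aligned, unassigned and ambiguous reads, stayed out of totals. Total reads in the tables were 5052766 and 7441784, of which 46.0% and 46.9% were sense counts on genes. Symbols and positions came from GENCODE M21 (1894 of 1973 rows matched; the other 79 had 0 counts), and sequences from RefSeq.

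CPM was scaled to 1000000 sense counts. Log2 ratios used a pseudocount of 1 CPM. Intervals are exact (scipy 1.17.1) at 95%; ratios between libraries use the conditional binomial interval, and ratios of ratios the conditional odds ratio. PCR reads are not independent molecules, so intervals and the limit of 3 counts for a count of 0 cover counting error only. SDs over 2 pups of 1 litter do not cover litters, and animal and library preparation cannot be told apart. The interval and fold calculations were tested on simulated data. The rule for named genes took all members, the epithelial and multiciliated lists, leading genes of other lists, any gene sharing a seed and the 5 genes nearest in ratio. Members and lists were chosen with earlier results of these data known. Alternatives used TMM factors (edgeR 4.0.16), DESeq2 1.42.0 size factors, other totals, both strands, pseudocounts and filters.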

Additional observations from a re-analysis of the deposited data

How the results depend on the processing

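With 1 library per pup, no test between pups was made. No paired analysis was possible because the series has a single group. Under TMM factors, DESeq2 size factors, counts of both strands or a total of all reads, the ratios between pups stayed within their counting intervals: 1.99 to 2.06 for Mir200b, 1.59 to 1.64 for Mir200a, 2.41 to 2.49 for Mir429, 4.31 to 4.44 for Mir200c and 4.39 to 4.53 for Mir141, and 2.67 to 2.75 for the family. With TMM factors the interval of Mir200a, 0.998 to 2.58, includes 1. Of 139 recomputed values, 118 moved by less than the spread or, for counts, by at most 1.5 times, 21 moved further and none changed direction. The 118 include the values with a pup left out. Those always move by less than the SD over the pups, so they say nothing on stability.

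CPM levels depend on the total chosen. Against all reads, all 5 fell: Mir200b to 32.7, Mir200a to 7.04, Mir429 to 81.4, Mir200c to 44.7 and Mir141 to 8.20 CPM; without the 10 most abundant genes, Mir200b was 193, Mir200a 41.5, Mir429 480.0, Mir200c 264 and Mir141 48.4. Counts past a fold depend on the filter. At a mean of 50 CPM or more, 3 members remained in the table (Mir200b, Mir429 and Mir200c) and 3 were past 1.5-fold. Over the 193 genes left, 4 were higher by 2-fold, and 5 higher and 1 lower by 1.5-fold. Of the other epithelial miRNAs 6 remained, and they gave 0 at both folds. This 0 was fixed by the filter, since Mir205, Mir375, Mir183, Mir96 and Mir182 all had means below 50 CPM. With no filter, 28 of 1973 genes were higher and 11 lower by 2-fold, and 78 higher and 36 lower by 1.5-fold. At 2 CPM, 9 of 338 genes were lower by 1.5-fold. With TMM, 1 gene was lower by 2-fold. With a pseudocount of 5 CPM, 1 gene was lower by 1.5-fold and 2 other epithelial miRNAs were higher by 2-fold. Members past 2-fold numbered between 2 and 4 over these settings.

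Leaving out a pup leaves the value of the other. The chromosome 6 share is then between 20.9% and 33.9%, and the seed share between 91.0% and 91.3%. Counts of 15 and 27 limit the precision for Mir141 and Mir200a in replicate 1.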

Other observations

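Of the 12 genes higher by 2-fold or more in replicate 2, 10 were members of the miR-200 family or of the other epithelial and multiciliated lists, all chosen with earlier results of these data known. Of the 258 genes at the filter, 5 were members, 11 were in the other epithelial list and 3 in the multiciliated list. The remaining 239 genes held 2 of the 12. Of the 12, 8 (Mir375, Mir205, Mir92b, Mir141, Mir137, Mir183, Mir34b and Mir96) were below 10 CPM in replicate 1 and reached the filter through replicate 2, so the tally is a description only. The other 2, named after their values were seen, were Mir92b (ratio of CPM + 1 of 4.13) and Mir137 (3.96), the second known as a neuronal miRNA. The neuronal genes Mir124a-1, Mir124a-2, Mir124a-3, Mir9-2 and Mir9-3 had 0 sense counts in both hearts. The Mir124a loci are copies of each other, and so are the Mir9 loci, so reads from them may be missing from these counts. Mir122, the liver miRNA, had 53.8 CPM in replicate 1 and 47.3 in replicate 2, and the blood list (Mir451a, Mir223, Mir144 and Mir150 with a row) summed to 990 and 890 CPM. All 4 blood genes were lower in replicate 2, beside 91 of the 258 genes whose mean reached 10 CPM. Of these 4, Mir144, a red cell miRNA, differed beyond counting error, at 188 and 132 CPM (ratio 0.698, 0.611 to 0.798). The intervals of Mir451a, Mir223 and Mir150 include 1. The difference in Mir122 was within counting error (interval of the ratio 0.693 to 1.12).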
